A study of Mus musculus with 4 samples.

Results

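Divergent gene pair promoters are stretches of DNA from which a pair of genes is read in opposite directions, one on each strand, with their transcription start sites (TSSs) close together and facing away from each other. Members were all pairs of autosomal protein-coding genes in the GENCODE M21 annotation of the mouse genome (mm10) in which the TSS of the minus-strand gene lay 1 to 1000 bp below the TSS of the plus-strand gene. The region of a pair ran from 500 bp outside one TSS to 500 bp outside the other. This rule used no measurement and gave 980 pair regions of 19865 autosomal protein-coding promoter regions, and the pairs held 1922 of 20807 genes. Of these genes, 38 stood in more than 1 pair, so that some regions overlapped, and merging them left 946 regions.

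ATAC-seq was performed on nuclei of hippocampi from mice at postnatal day 0 (P0). In this assay the Tn5 transposase cuts DNA that is not wrapped tightly into nucleosomes, and places where the sequenced fragments pile up are called as peaks of open chromatin. The design held 2 libraries labelled cKO and 2 labelled Ctrl, and the comparison asked whether promoter accessibility differed after loss of the DNA-binding part of KDM2B. The cKO libraries carried the genotype Kdm2b Emx1-ΔCxxC, in which Cre driven by the Emx1 promoter removes the exon for the CxxC zinc finger in progenitors of the dorsal telencephalon and their descendants, so that cells of other origin in the dissected tissue keep the intact gene. The Ctrl libraries were Kdm2b fl/+ or fl/fl, and the labels do not say which genotype each library had, nor give sex, litter, batch or whether animals were pooled. Neural progenitor cells are given as the source in the labels, whereas the titles and the protocol give dissected hippocampus. A peak stood at a TSS of 9, 0, 5 and 9 of 10 dorsal telencephalic marker genes in Ctrl replicate 1, Ctrl replicate 2, cKO replicate 1 and cKO replicate 2, and at none of the 3 microglial, 2 vascular and 4 other-tissue marker genes in any list. At interneuron genes, which mark cells outside the Emx1 lineage, the same 4 lists held a peak at 2, 0, 0 and 1 of 4 genes, and at oligodendrocyte lineage genes at 1, 0, 0 and 0 of 3. Kdm2b, which belongs to no pair, had a peak at a TSS in every list but that of Ctrl replicate 2, and peak lists do not test whether its exon was deleted.

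The 4 lists differed in length before any promoter was considered. Ctrl replicate 1 had 46389 peaks, Ctrl replicate 2 had 7037, cKO replicate 1 had 21404 and cKO replicate 2 had 44535. Ctrl replicate 2 stood apart, since 57.6% of its autosomal peaks consisted mostly of repeat-masked sequence, against 4.88% to 13.4% in the other lists. The background depth that the peak caller used was 1.62, 3.46, 2.07 and 1.81 fragments per base in the same order. All comparisons between cKO and Ctrl are therefore given with and without Ctrl replicate 2. Whether the libraries came from separate animals is not stated, and p-values measure only the spread between these samples, which may be technical.

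Head-to-head promoters are common in mammalian genomes and are known for housekeeping functions such as DNA repair, mitochondrial biogenesis and RNA processing. Most lie in CpG islands (CGIs), stretches rich in G and C in which the CpG dinucleotide has not been lost, and CGIs are where KDM2B binds through its CxxC zinc finger as part of a variant Polycomb repressive complex. Many active CGI promoters fire in both directions even when only one of the directions leads into a gene, and in a divergent pair both do.

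The distance between the TSSs of a pair had a median of 133 bp (interquartile range 70.8 to 263 bp, range 1 to 996 bp), and 776 pairs (79.2%) were at most 300 bp apart. Chromosome 11 held most pairs (90). In 215 pairs the annotated gene bodies overlapped because another transcript of at least one gene starts further out. A CGI, here a window of 200 bp with at least 50% GC and an observed-over-expected CpG ratio of at least 0.6, lay in 943 pair regions (96.2%) and in 11303 of 18885 other promoters (59.9%). Under stricter limits of 500 bp, 55% and 0.65 the shares were 70.1% and 32.8%. The median GC content was 59.2% in pair regions, 58.2% in other CGI promoters and 53.8% in all other promoters, and the median CpG ratio was 0.76, 0.70 and 0.52. In both medians pair regions were thus nearer to other CGI promoters than to all other promoters, though still higher. Other CGI promoters were used as the nearer comparison, which does not match pairs fully in composition. The stricter shares above are set against all other promoters only.

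The stretches between the TSSs of 7 pairs show what such a shared promoter looks like. They are the textbook pairs Hspd1/Hspe1 (chr1:55088025-55088131), Mrps12/Sars2 (chr7:28741821-28742001), Brca1/Nbr1 (chr11:101551880-101552148) and Psmb1/Tbp (chr17:15499752-15499887), the 2 pairs with the highest mean rank of their peaks over the 4 lists, Ggps1/Arid4b (chr13:14063489-14063784) and Pdcd10/Serpini1 (chr3:75557052-75557351, the central 300 of 690 bases), and Col4a4/Col4a3 (chr1:82586850-82586975), which had no peak in any list. All 7 lie between the annotated ends of both genes, in neither gene's exons or introns. The sequence is the plus strand of the RefSeq genome GRCm38.p6, 5′ to 3′, so that the gene named first is read to the left and the gene named second to the right. Capitals mark matches on either strand to a CCAAT box (CCAAT, bound by NF-Y), a GC box (GGGCGG, bound by Sp1 family factors), the ETS letters CCGGAAG or the ZNF143 part ACTACAA.
Hspd1/Hspe1: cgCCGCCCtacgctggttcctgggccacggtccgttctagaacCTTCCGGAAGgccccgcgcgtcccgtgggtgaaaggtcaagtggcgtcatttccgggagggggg
Mrps12/Sars2: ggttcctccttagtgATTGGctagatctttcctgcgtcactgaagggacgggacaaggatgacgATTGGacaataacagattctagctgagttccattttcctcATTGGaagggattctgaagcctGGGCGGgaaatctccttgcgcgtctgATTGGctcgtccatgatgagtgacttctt
Brca1/Nbr1: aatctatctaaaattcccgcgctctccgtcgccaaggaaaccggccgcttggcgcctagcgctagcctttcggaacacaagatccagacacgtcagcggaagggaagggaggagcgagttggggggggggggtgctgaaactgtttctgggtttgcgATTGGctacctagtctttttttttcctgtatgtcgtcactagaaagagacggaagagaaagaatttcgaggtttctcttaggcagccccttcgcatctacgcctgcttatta
Psmb1/Tbp: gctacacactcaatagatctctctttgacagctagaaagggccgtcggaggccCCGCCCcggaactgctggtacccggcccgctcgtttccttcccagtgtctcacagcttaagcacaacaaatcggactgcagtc
Ggps1/Arid4b: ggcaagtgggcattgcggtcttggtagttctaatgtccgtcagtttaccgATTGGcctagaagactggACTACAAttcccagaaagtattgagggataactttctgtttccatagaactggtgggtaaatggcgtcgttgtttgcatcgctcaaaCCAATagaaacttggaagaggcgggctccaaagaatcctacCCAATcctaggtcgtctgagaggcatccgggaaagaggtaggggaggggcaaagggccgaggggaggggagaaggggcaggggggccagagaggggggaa
Pdcd10/Serpini1: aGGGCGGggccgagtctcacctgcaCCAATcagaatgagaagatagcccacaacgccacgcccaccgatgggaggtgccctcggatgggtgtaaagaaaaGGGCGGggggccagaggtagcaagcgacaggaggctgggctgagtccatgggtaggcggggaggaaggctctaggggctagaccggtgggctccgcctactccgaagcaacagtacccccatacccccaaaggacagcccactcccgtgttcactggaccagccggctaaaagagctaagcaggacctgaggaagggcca
Col4a4/Col4a3: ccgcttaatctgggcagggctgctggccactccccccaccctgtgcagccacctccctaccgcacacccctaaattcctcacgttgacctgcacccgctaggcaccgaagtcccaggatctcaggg

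No match to the 8 motifs searched was found in the Col4a4/Col4a3 stretch, which says only that these letters are not there. The Mrps12/Sars2 stretch held 4 CCAAT boxes within 181 bases, all on the minus strand, at positions 16, 65, 105 and 153 counted from its 5′ end. The Ggps1/Arid4b stretch held 3, at positions 51, 156 and 197. In Hspd1/Hspe1 the ETS letters were present on both strands in overlapping copies at positions 44 and 47. A match is a description of the sequence and not a bound site.

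The same letters were counted in all promoters, from 250 bases before to 50 bases after each gene's TSS, on both strands. The windows of the genes of a pair mostly overlap, so that one match can count for both genes. ETS letters occurred in 28.7% of the 1922 pair genes, in 15.0% of other CGI promoters and in 11.6% of all promoters. NRF1 letters (GCGCATGCG) occurred in 4.89%, 3.26% and 2.26%, YY1 letters (AAGATGGCG) in 4.84%, 2.42% and 1.84%, and the CRE (TGACGTCA) in 4.84%, 3.27% and 2.48%. GC boxes were found in 67.3% of pair genes and 65.5% of other CGI promoters against 45.6% of all promoters. CCAAT boxes were found in 41.4%, 37.3% and 38.4%, and the ZNF143 part in 5.78%, 3.59% and 3.89%. The TATA box (TATAAA) went the other way, with 4.27% of pair genes, 7.25% of other CGI promoters and 12.6% of all promoters. These shares have no test, because genes are not replicates.

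Nearly all divergent pairs held an ATAC-seq peak in the 2 longest lists. A peak overlapped by at least 1 bp 906 of 980 pair regions in Ctrl replicate 1 (92.4%, Wilson interval at 95% from 90.6 to 93.9%) and 902 in cKO replicate 2 (92.0%, 90.2 to 93.6%). In cKO replicate 1 the count was 771 (78.7%, 76.0 to 81.1%), and in the short list of Ctrl replicate 2 it was 272 (27.8%, 25.0 to 30.6%). The intervals cover counting error only. Other promoters held a peak in 50.2%, 5.72%, 33.3% and 47.8% of cases in Ctrl replicates 1 and 2 and cKO replicates 1 and 2, and other CGI promoters in 78.4%, 9.31%, 53.5% and 75.3%. The share of pairs was above that of other promoters in 4 of 4 libraries, by 38.5 ± 11.1 percentage points (mean ± SD, n = 4 libraries, exact two-sided sign-flip permutation p = 0.13). Against other CGI promoters it was higher in 4 of 4 libraries by 18.6 ± 4.74 points (n = 4, exact permutation p = 0.13). In this design 0.13 is the smallest p possible, and it stayed 0.13 after Benjamini-Hochberg adjustment over the 7 comparisons of pairs with other promoters. Without Ctrl replicate 2 the mean differences were 44.0 and 18.7 points. In lists of equal size they were 38.0 and 28.3 points.

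**Figure D1:**
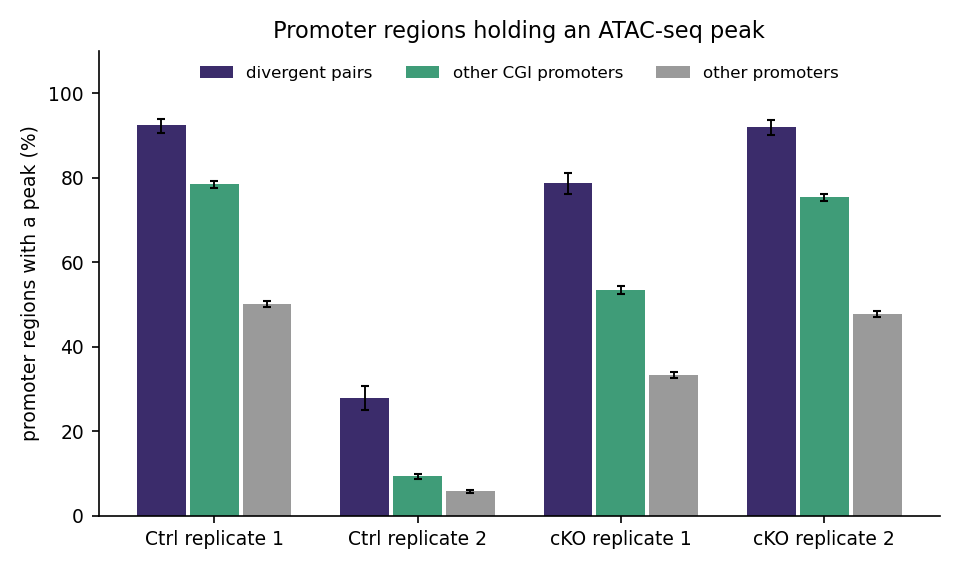
Share of promoter regions (%, y axis) that held at least 1 peak in each library, for 980 divergent pairs, 11303 other CGI promoters and all 18885 other promoters. Bars start at 0, and error bars are 95% Wilson intervals over regions. In each library the bar for pairs stands above both others, from 27.8% in Ctrl replicate 2 to 92.4% in Ctrl replicate 1.

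Peaks at pairs were also wider and higher. For a region with several peaks the strongest by p-value was taken. Its median width at pairs was 787, 364.5, 572 and 746 bp in Ctrl replicates 1 and 2 and cKO replicates 1 and 2, against 671, 332, 465 and 628 bp at other CGI promoters. The difference was 93.4 ± 40.9 bp (mean ± SD, n = 4 libraries, wider in 4 of 4, exact sign-flip permutation p = 0.13). Summit depth, the number of fragments over the summit as recovered from the deposited fold and p-value, was divided by the background depth of its list. This scaled summit depth had medians at pairs of 40.1, 6.06, 15.9 and 33.8 in the same order, against 22.8, 5.77, 11.1 and 19.9 at other CGI promoters. Pairs were higher in 4 of 4 libraries, by 9.05 ± 7.85 (n = 4, exact permutation p = 0.13), but in Ctrl replicate 2 the difference was only 0.29, about 1 fragment. Among peaks with −log10 q of at least 5 the difference was 8.27 and no longer held in 4 of 4 libraries (exact permutation p = 0.25), and in lists of equal size it was 4.35, with 59.0 bp for width. Without Ctrl replicate 2 the mean differences were 114 bp and 12.0.

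Both genes of a pair were usually covered by the same peak, and most summits lay within 100 bp of the midpoint between the TSSs. The strongest peak covered both TSSs at 804 of the 906 pairs with a peak in Ctrl replicate 1 (88.7%), at 588 of 771 in cKO replicate 1 (76.3%) and at 793 of 902 in cKO replicate 2 (87.9%), but at 96 of 272 in Ctrl replicate 2 (35.3%), where peaks were narrower. At other promoters the peak covered the single TSS in 85.5%, 60.5%, 79.1% and 83.8% of cases in Ctrl replicates 1 and 2 and cKO replicates 1 and 2. The median distance of the summit from the midpoint, counted positive toward the plus-strand gene, was -4, 3, -6.5 and -6.5 bp in Ctrl replicates 1 and 2 and cKO replicates 1 and 2. Opposite signs cancel in this median, so it shows only that neither gene's side was favoured. Without the sign, medians by class of TSS distance ran from 37.5 to 288.5, 75.5 to 139.5, 51 to 276.75 and 38.5 to 296.5 bp in the same order. Within 100 bp of the midpoint lay 64.3%, 52.2%, 60.2% and 62.1% of summits. Summits of other promoters also gathered near the TSS. Their interquartile range from it was -94 to 95, -176 to 66.25, -106 to 94 and -99 to 92 bp. At pairs the interquartile range from the midpoint was -69.5 to 60, -90.75 to 99.6, -84.75 to 66 and -74.9 to 63.9 bp. Summits of pairs fell on both sides. In Ctrl replicate 1 a total of 228 summits lay on the side of the minus-strand gene and 203 on that of the plus-strand gene, and 475 lay between the TSSs. Where a pair had a peak in both Ctrl replicate 1 and cKO replicate 2 (894 pairs), the summits were a median of 31 bp apart, against 38 bp at other promoters. This was the smallest shift between any lists. For the remaining combinations the medians were 36 to 48 bp at pairs and 42 to 55 bp at other promoters.

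**Figure D2:**
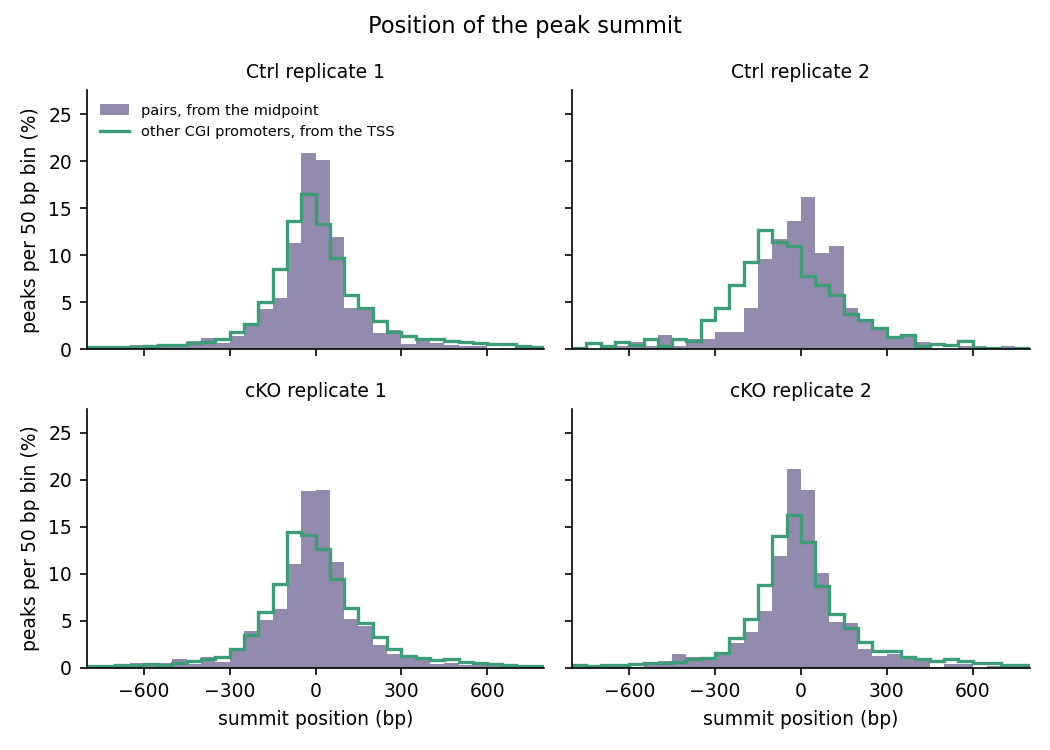
Position of the strongest peak's summit (x axis, bp) as a share of all peaks per 50 bp bin (y axis, %), one panel per library. Filled bars are pairs, measured from the midpoint between the TSSs, and the line is other CGI promoters, measured from the TSS with the gene to the right. At pairs 52.2% to 64.3% of summits lay within 100 bp of the midpoint.

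The position of the summit followed the distance between the TSSs. At pairs 1 to 100 bp apart the summit lay between the TSSs in 25.4%, 15.8%, 23.3% and 25.9% of cases in Ctrl replicates 1 and 2 and cKO replicates 1 and 2, while the stretch between the TSSs was 5.38% to 5.64% of the region. At pairs 201 to 300 bp apart the shares were 83.5%, 71.1%, 80.7% and 81.7%, and the stretch was 19.6% to 19.8% of the region. At 501 to 1000 bp they were 72.5%, 87.5%, 70.0% and 71.4%, with 40.0% to 41.3% of the region. The share was thus highest at 301 to 500 bp in all 4 lists (84.3% to 93.6%), and above the share of the region that the stretch occupied in every class and list. One peak still covered both TSSs at 42.9% of the pairs 501 to 1000 bp apart in Ctrl replicate 1, against 97.2% of those up to 100 bp apart. More than 1 peak was held by 9, 3, 6 and 7 pairs in the 4 lists, which is 0.99%, 1.10%, 0.78% and 0.78% of pairs with a peak, against 1.94%, 0.28%, 1.0% and 2.36% of other promoters with one.

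Since summits of other promoters also tend to lie upstream of the TSS, a matched measure was added after the data had been seen. For each pair with a peak, the share of other CGI promoters with a peak whose summit lay upstream of the TSS within the same length was taken. Averaged over pairs this was 33.6%, 40.6%, 33.7% and 34.1%, against 52.4%, 55.9%, 51.5% and 51.8% of pair summits between the TSSs. The difference was 17.4 ± 1.49 points (mean ± SD, n = 4 libraries, higher in 4 of 4, exact sign-flip permutation p = 0.13). Peaks at pairs reached less far into each gene than peaks at other CGI promoters, with median reaches past the TSS of 293, 52.5, 211 and 274 bp against 369, 123, 255 and 344 bp. This second added measure differed by -65.1 ± 14.3 bp (n = 4, lower in 4 of 4, exact permutation p = 0.13). Peak width rose with the distance between the TSSs, from a median of 752.5 bp at 1 to 100 bp to 916 bp at 501 to 1000 bp in Ctrl replicate 1, and Spearman's rho between distance and width was 0.18, 0.14, 0.23 and 0.20 over 906, 272, 771 and 902 pairs, given as a description since the pairs share each library. A simpler planned measure set the share of pair summits between the TSSs against the share of summits upstream of the TSS at other genes. The difference was -3.69 ± 3.55 points (n = 4, lower in 4 of 4, exact permutation p = 0.13), and -1.97 points without Ctrl replicate 2. Its sign depended on how the TSS and window were set. Pair summits inside the partner gene were not counted as upstream, so this measure does not show fewer upstream summits at pair genes.

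**Figure D3:**
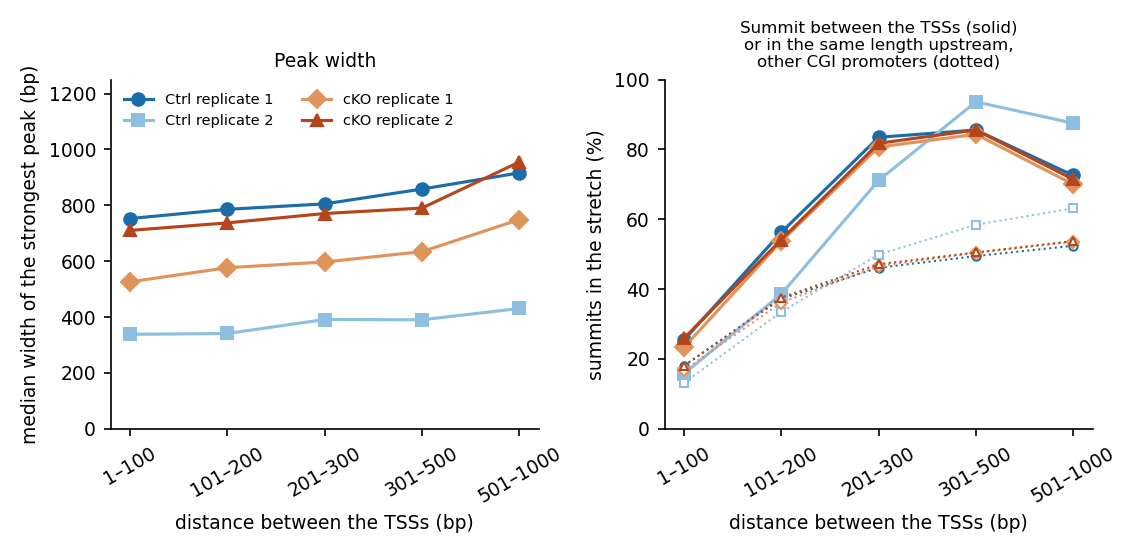
Left, median width of the strongest peak (y axis, bp) by distance between the TSSs (x axis, bp, 5 classes), one line per library. Right, share of summits (y axis, %) between the TSSs of pairs (solid) and in the same length upstream of other CGI promoters (dotted). Width is greater at 501 to 1000 bp than at 1 to 100 bp in each library, and the solid lines lie above the dotted ones in each library and class.

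Among textbook pairs, 10 of 17 considered met the rule, and 9 of these had a peak. Mcm4/Prkdc, a subunit of the replicative helicase and the DNA-dependent protein kinase of end joining, had the highest of them in every list but that of Ctrl replicate 2. Its scaled summit depths were 125, 7.22, 43.9 and 99.1 in Ctrl replicates 1 and 2 and cKO replicates 1 and 2. Atm/Npat, the DNA damage kinase and a coactivator of histone genes, had 91.2, 10.1, 28.4 and 69.7. In both pairs Ctrl replicate 1 was highest and Ctrl replicate 2 lowest, so that the Ctrl values enclosed both cKO values.

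Hspd1/Hspe1, the mitochondrial chaperonin and its co-chaperonin, whose shared stretch holds the overlapping ETS letters, had scaled summit depths of 70.9, 6.93, 26.5 and 62.5, with summits 33, 54, 47 and 68 bp from the midpoint. Mrps12/Sars2, a mitochondrial ribosomal protein and the mitochondrial seryl-tRNA synthetase, had 76.4, 5.20, 26.0 and 61.4. Its summits lay 53 bp, 254 bp, 110 bp and 43 bp toward Sars2, the farthest in Ctrl replicate 2, where only 18 fragments covered it. Gart/Son, a purine synthesis enzyme and a splicing cofactor, had 57.3, 19.8 and 38.7 in Ctrl replicate 1 and cKO replicates 1 and 2 and no peak in Ctrl replicate 2. Its summits lay 563, 487 and 550 bp from the midpoint toward Son, beyond that gene's TSS.

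Brca1/Nbr1, a gene of homologous recombination and an autophagy receptor, had its summit farther from the midpoint than Gart/Son in each of the 3 lists where both had a peak. Its only peak in each list was 1344, 924, 1168 and 1195 bp wide, and its summits lay 775, 715, 761 and 750 bp from the midpoint, inside Nbr1 and outside the pair region. Scaled summit depths there were 63.5, 5.77, 26.0 and 63.1. The peak reached back into the pair region, which is why it was counted, and the 4 summits lay within 60 bp of each other.

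Psmb1/Tbp, a proteasome subunit and the TATA-binding protein, had lower values of 25.3, 7.23 and 31.0 in Ctrl replicate 1 and cKO replicates 1 and 2. Psmb9/Tap1, the immunoproteasome subunit and the peptide transporter of antigen presentation, had 23.4, 12.1 and 23.8, with summits at -198, -263 and -362 bp from the midpoint, on the Psmb9 side and outside the short shared stretch. Another Tap1 transcript starts on that side too (chr17:34187553), so these summits cannot be assigned to Psmb9 alone. Neither Psmb1/Tbp nor Psmb9/Tap1 had a peak in Ctrl replicate 2. Col4a4/Col4a3, which encode collagen IV chains of specialised basement membranes such as that of the kidney glomerulus, had no peak in any list, although its region met the CGI limits with a CpG ratio of 0.42 over the whole region.

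The 5 pairs with the highest mean rank over the 4 lists were Ggps1/Arid4b, Pdcd10/Serpini1, Odr4/Tpr, Zfp654/Cggbp1 and Ccdc115/Imp4. The rank of a pair is the percentage of all 19865 promoter regions with a weaker strongest peak by p-value, and was 99.7 or 99.8 on average for all 5. Ggps1/Arid4b, an enzyme of isoprenoid synthesis and a chromatin-associated factor, had scaled summit depths of 144, 9.53, 53.0 and 129. Pdcd10/Serpini1, a gene of vascular integrity and neuroserpin, a protease inhibitor of neurons, had 128, 9.81, 49.7 and 111. Odr4/Tpr, of which Tpr is a component of the nuclear pore basket, had 122, 9.81, 44.8 and 112. For each of the 5 the order of the libraries was the same at the low end, with Ctrl replicate 2 lowest and cKO replicate 1 next.

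**Figure D4:**
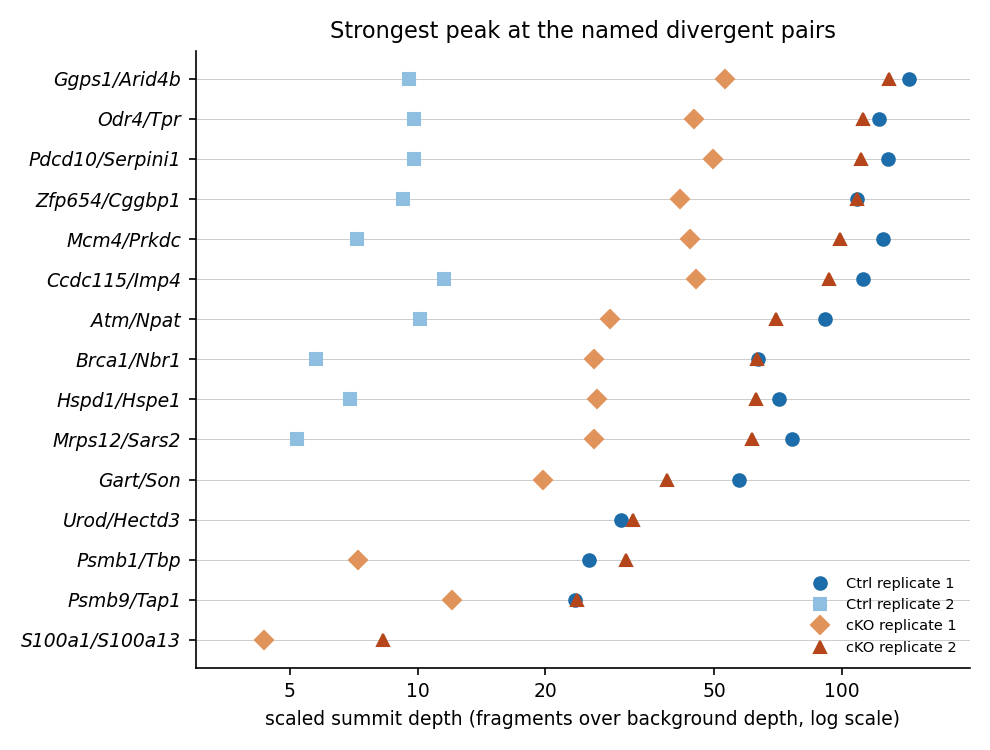
Scaled summit depth of the strongest peak (x axis, fragments over background depth, log scale) at the named pairs with a peak (y axis), one marker per library. A missing marker means no peak in that list. The Ctrl markers lie at both ends for the pairs with 4 peaks, and S100a1/S100a13 has cKO markers only.

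Gene groups among the pairs were taken from symbol lists, and their shares are set beside those of all pairs without a test. Of 60 pairs with a mitochondrial gene (ribosome, respiratory chain, import), 60, 15, 50 and 60 held a peak in Ctrl replicates 1 and 2 and cKO replicates 1 and 2. Of 71 pairs with a gene of RNA processing or translation, 71, 18, 64 and 71 did. The shares were 100%, 25.0%, 83.3% and 100% in the first group and 100%, 25.4%, 90.1% and 100% in the second, against 92.4%, 27.8%, 78.7% and 92.0% of all pairs, and both groups were thus below all pairs in Ctrl replicate 2. Mrpl18/Tcp1, a mitochondrial ribosomal protein and a chaperonin subunit, led the first group with scaled summit depths of 96.8, 7.51, 33.3 and 72.5, and Zfp661/Mrps5 had the lowest mean rank of the group, with 10.5 in both Ctrl replicate 1 and cKO replicate 2 and no peak in the other 2 lists. Rita1/Ddx54, of which Ddx54 is an RNA helicase, led the second with 101, 11.0, 34.7 and 91.9.

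Of 40 pairs with a gene of DNA replication or repair, 38, 11, 34 and 39 held a peak. The shares were 95%, 27.5%, 85.0% and 97.5%, against 92.4%, 27.8%, 78.7% and 92.0% of all pairs. The group's median scaled summit depth of 49.9 in Ctrl replicate 1 was the highest of the groups. Orc4/Mbd5, of which Orc4 is a subunit of the origin recognition complex, had 102, 9.24, 35.2 and 86.9. Cenpj/Parp4 had no peak in any list. Of 44 pairs with a gene of the ubiquitin and proteasome system, 41, 16, 36 and 41 held a peak (93.2%, 36.4%, 81.8% and 93.2%). Usp5/Cdca3, a deubiquitinase and a cell division protein, had 104, 10.7, 42.9 and 96.9, whereas Peg3/Usp29, an imprinted locus, Usp37/Plcd4 and Tradd/Fbxl8 had no peak in any list.

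Of 14 pairs with a core histone gene, 13, 2, 11 and 13 held a peak. The shares were 92.9%, 14.3%, 78.6% and 92.9%, against 92.4%, 27.8%, 78.7% and 92.0% of all pairs. Most of these pairs are a gene for H2A facing one for H2B. Such genes have near-identical copies, so that reads may have been placed on the wrong copy or left out, and their values are uncertain. Hist1h2ac/Hist1h2bc had the highest rank, with scaled summit depths of 70.9, 4.91, 17.4 and 42.1. Hist1h2ba/Hist1h2aa, the testis variants of H2B and H2A, had no peak in any list. The symbol lists also took in a few genes by name alone, such as Foxred1, Col4a3bp, Rps6kb1 and Parpbp, which do not belong to the families meant. The symbol list of developmental regulators and Wnt signaling, the processes the study is about, matched 4 pairs, all through a symbol that begins with Fox. This number describes the list, and other pairs may hold developmental genes that it lacks. The matched pairs were Frg2f1/Foxj3, Rhno1/Foxm1, Foxa3/Sympk and, by name alone, Foxred1/Srpr. Each held a peak in every list except that of Ctrl replicate 2. Their scaled summit depths in Ctrl replicate 1 and cKO replicates 1 and 2 were 19.7, 6.27 and 13.3 for Frg2f1/Foxj3, 19.1, 7.71 and 13.3 for Rhno1/Foxm1, 30.8, 8.20 and 37.6 for Foxa3/Sympk and 77.1, 27.5 and 55.9 for Foxred1/Srpr. Foxm1 is a transcription factor of the G2 phase, and Foxa3 one of liver and gut.

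Between cKO and Ctrl, the number, width and height of peaks at divergent pairs did not separate the groups. The share of pairs with a peak averaged 85.4 ± 9.45% in cKO and 60.1 ± 45.7% in Ctrl (mean ± SD, n = 2 each), a difference of 25.3 points (exact two-sided permutation p = 1). Without Ctrl replicate 2 the difference was -7.09 points (exact permutation p = 0.667). Median peak width was 659 ± 123 bp in cKO and 576 ± 299 bp in Ctrl, a difference of 83.3 bp (n = 2 each, exact permutation p = 1), and -128 bp without Ctrl replicate 2 (exact permutation p = 0.667). Median scaled summit depth was 24.8 ± 12.6 in cKO and 23.1 ± 24.0 in Ctrl, a difference of 1.77 (n = 2 each, exact permutation p = 1), and -15.2 without it (exact permutation p = 0.667). For these 3 measures the direction turned without Ctrl replicate 2, for width and scaled summit depth it also turned without cKO replicate 2 (-3.75 bp and -7.16), and the Ctrl values enclosed the cKO values. With Ctrl replicate 2 left out the Ctrl arm is a single library, so that those permutations cannot go below 0.33 and say little about separation.

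The share of summits between the TSSs was 51.6 ± 0.20% in cKO and 54.2 ± 2.44% in Ctrl, a difference of -2.52 points (n = 2 each, exact permutation p = 0.33, the smallest possible with 2 against 2). Both cKO libraries were lower than both Ctrl libraries, and without Ctrl replicate 2 the difference was -0.80 points (exact permutation p = 0.33). In lists cut to equal size it reversed to 1.29 points. Over the 4 comparisons between groups the adjusted p was 1 by the Benjamini-Hochberg method for each exact permutation test. A p that misses the threshold does not show that the groups were alike, and 2 libraries a group cannot reach a p below 0.33.

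Counted pair by pair, peaks called in cKO replicates 1 and 2 but in no Ctrl library occurred at 1 pair, S100a1/S100a13. This was 0.102% of pairs, against a background of 0.0856% of all promoter regions (17 of 19865). These genes encode calcium-binding proteins of the S100 family. The peaks there were small, with 9 fragments at the summit in cKO replicate 1 and 15 in cKO replicate 2 (scaled summit depths of 4.34 and 8.30), and their summits lay 357.5 and 28.5 bp from the midpoint, so that they were not at the same place. The reverse, with peaks called in Ctrl replicates 1 and 2 but in no cKO library, occurred at 0 pairs, against a background of 0%. Peaks in all 4 lists occurred at 271 pairs (27.7%), against 6.74% of all promoter regions. The commonest combination was every list but Ctrl replicate 2, with 499 pairs, followed by all 4 lists, with 271. The 499 were 50.9% of pairs, against 27.3% of other promoters and 43.8% of other CGI promoters. Next came Ctrl replicate 1 with cKO replicate 2, the 2 longest lists, with 123 (12.6%). This combination was no commoner at pairs than at other promoters (13.0%) or other CGI promoters (19.8%). These counts depended on single libraries. Without Ctrl replicate 1, peaks in the cKO lists alone occurred at 500 pairs (51%), against 28.5% of all promoter regions. They occurred at 8 pairs (0.816%) without cKO replicate 1, against 1.72%, and at 8 (0.816%) in lists of equal size, against 0.307%. Without Ctrl replicate 2, peaks in the Ctrl list alone occurred at 12 pairs (1.22%), against 3.83% of all promoter regions, and 78.6% of pairs had a peak in all 3 lists then left, against 35.2%. At least 1 list held a peak at 914 pairs (93.3%), against 54% of all promoter regions, and 66 pairs had none.

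**Figure D5:**
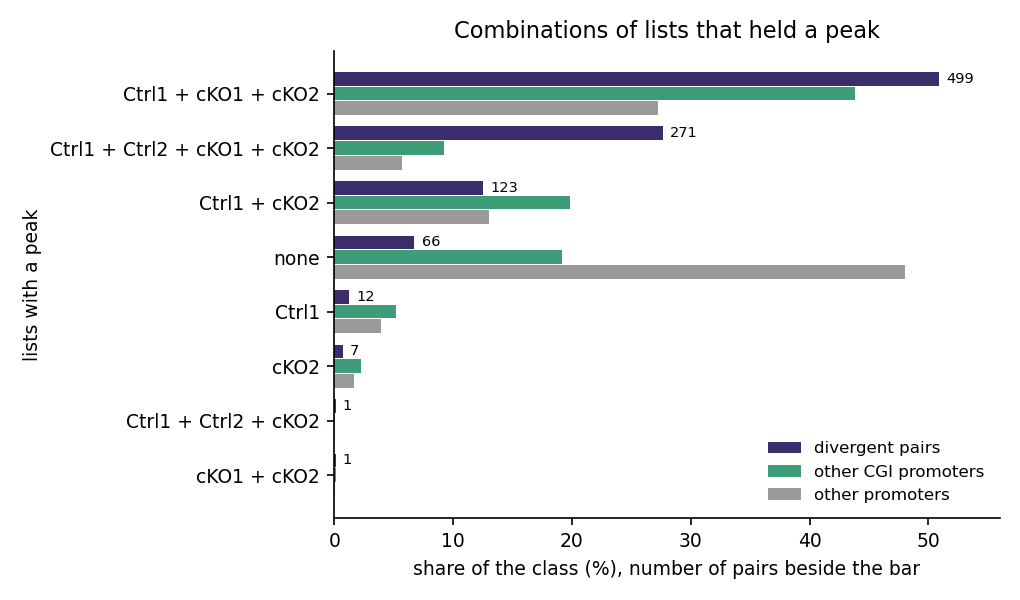
Share of each class of promoter (x axis, %) by the combination of lists that held a peak (y axis, with Ctrl1 standing for Ctrl replicate 1 and so on), for combinations seen at pairs. Numbers beside the bars count pairs. Peaks in all 4 lists occurred at 271 pairs, and peaks in both cKO lists alone at 1.

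At the 271 pairs with a peak in all 4 lists, both cKO values of scaled summit depth exceeded both Ctrl values at 0 pairs and fell short of them at 0, against 0.0747% and 0% of the 1339 promoter regions with 4 peaks. Ranks within each list by the p-value of the caller were higher in both cKO libraries at 176 of 914 pairs (19.3%, against 20.7% of all promoter regions with a peak) and lower at 56 (6.13%, against 2.69%). A region without a peak has rank 0, so that a pair absent from the list of Ctrl replicate 2 can be higher in cKO but not lower. Only regions with a peak in both Ctrl lists could be lower, and these were 272 pairs and 1073 other promoters. The shares of 6.13% and 2.69% also count regions that could not be lower, which were rarer among pairs. They therefore do not show that pairs were lower more often. Without Ctrl replicate 2, at 770 pairs with a peak in the other 3 lists, the rank was above Ctrl replicate 1 in both cKO libraries at 239 (31.0%) and below at 251 (32.6%), and at 6218 other promoters the shares were 37.1% and 27.2%. Scaled summit depth lay below that of Ctrl replicate 1 in both cKO libraries at 663 of the 770 pairs (86.1%), and at 82.9% of the other promoters. These are counts against a single library and have no test.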

How the data were processed

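ATAC-seq peak lists of 2 cKO and 2 Ctrl libraries were used. According to the study's methods, the authors used Cutadapt for trimming and Bowtie2 for alignment to mm10, discarded duplicates, mitochondrial reads and blacklisted regions, corrected read ends for the Tn5 offset, and called peaks with MACS2 2.2.7.1. One list was deposited for each library, and no control library is named. The deposited columns hold a score (a display value, not used), fold enrichment at the summit (a ratio of depth plus 1 to background plus 1, by the authors' caller), −log10 p and −log10 q, and the summit offset. The deposited lists give no read totals, and the protocol gives only a target depth that was the same for all. The recovered background was the only measure of depth in each library. It was 1.62, 3.46, 2.07 and 1.81 fragments per base in Ctrl replicates 1 and 2 and cKO replicates 1 and 2. Ctrl replicate 2, the shortest list, thus had the highest background, and the reason for its short list was not tested. Separate lists share no scale, and the number of peaks limits each share.

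Summit depth was recovered as the whole number of fragments that gave both the deposited fold and −log10 p within 0.01, which succeeded for at least 99.94% of peaks in each list, and was divided by the lowest background of its list. Other promoters were autosomal genes in no pair, at the TSS of most transcripts, over 1134 bp (the median width of pair regions). Pairs named were textbook pairs, the 5 with the highest mean rank, those with peaks in both lists of 1 group only, the 5 closest pairs with no peak and those with a separate peak at each TSS. Of the textbook pairs, 1 is not reported here. Pairs were compared with other promoters inside each list (exact sign-flip permutation over 4 libraries) and groups over the 6 assignments of libraries. The overlap, pairing and test functions were tested on simulated data. Python 3.11.15, numpy 2.4.6, pandas 2.3.3, scipy 1.17.1 and matplotlib 3.10.9 were used. The members, gene lists and tests were chosen with earlier results of these data known. Alternatives were the peak threshold, list length, overlap rule, repeats, TSS choice, largest distance, merged regions, comparison windows and sets, CGI limits, leaving out each library and pairing by replicate number. No differential test of single regions was made, as read counts were not used here.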

Additional observations from a re-analysis of the deposited data

How the results depend on the processing

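The 6 differences in share, width and scaled summit depth between pairs and other promoters kept the direction of their mean under all alternatives run. With all 4 libraries in, the share ranged from 36.5 to 39.8 points and, against other CGI promoters, from 15.8 to 28.3 points. In lists of equal size the differences were smaller, at 58.9 and 59.0 bp for width and 4.49 and 4.35 for scaled summit depth, against other promoters and other CGI promoters. At −log10 q of at least 5 scaled summit depth differed by 8.57 and 8.27, not in 4 of 4 libraries (exact permutation p = 0.25). The planned difference in upstream summits was -2.36 points (exact permutation p = 0.25) against genes without an opposite-strand TSS upstream. It reversed to 3.87 points at the 5′-most TSS. With 500 bp either side of 1 TSS, where the body of the partner gene counts as upstream, it was 19.8 points. Other settings moved it further below 0, to -8.02 points in lists of equal size, -8.72 with the best TSS of other genes and -6.62 at TSS distances up to 500 bp. Between groups, the difference in the share of summits between the TSSs reversed to 1.29 points in lists of equal size. It was -4.23 points at −log10 q of at least 5 and -0.70 points at TSS distances up to 500 bp. Pairs with a peak in cKO lists alone numbered 0 at −log10 q of at least 5, 8 in lists of equal size and 2 when the summit had to lie in the region. Those with a peak in Ctrl lists alone numbered 2 in lists of equal size (0.204%), against 0.0604% of all promoter regions. Peaks in all 4 lists fell to 19.0% of pairs at −log10 q of at least 5. For that threshold and for the summit rule, no share of all promoter regions is available, so those counts cannot be set against a background. The cause of these changes was not tested.

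Leaving out 1 library at a time gave ranges of 36.2 to 44.0 points (share against other promoters), 16.4 to 20.1 (against other CGI promoters), 86.8 to 117 bp and 85.2 to 114 bp (width), 6.50 to 12.6 and 6.32 to 12.0 (scaled summit depth) and -4.67 to -1.97 points (upstream summits). Between groups the ranges were -7.09 to 57.6 points, -128 to 294.5 bp, -15.2 to 18.8 and -4.25 to -0.80 points, and direction changed without Ctrl replicate 2 for the first 3 and without cKO replicate 2 for width (-3.75 bp) and scaled summit depth (-7.16). Counts ranged from 1 to 500 pairs in cKO lists alone (500 without Ctrl replicate 1, and 8 without cKO replicate 1). In Ctrl lists alone they ranged from 0 to 12 (12 without Ctrl replicate 2, and 1 without cKO replicate 2). That 1 pair was 0.102% of pairs, against 0.0302% of all promoter regions. The share with a peak in all lists kept ranged from 27.7% to 78.6% (78.6% without Ctrl replicate 2).

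The replicate numbers of cKO and Ctrl share no stated origin, and deviations of same-numbered libraries correlated at -0.12 over 980 pairs. With the replicate number as a block the differences between groups stayed at 25.3 points, 83.3 bp, 1.77 and -2.52 points, with a smallest possible p of 0.5, and made 0 calls, as did the crossed pairing, which was chosen after seeing the data, as were the stricter CGI limits. The lists give no read totals, and any statement on absent peaks is limited to the caller's threshold.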

Other observations

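The 66 pairs without a peak in any list differed in composition from the rest, given here as values without a test. Their median CpG ratio was 0.33 against 0.78 at the 271 pairs with 4 peaks, and 57.6% held a CGI against 99.6%. Their median TSS distance was 135 bp, against 131, 92, 114.5 and 192 bp at pairs with a peak in 1, 2, 3 and 4 lists. The 5 closest of them were Lrrc34/Lrriq4 (17 bp apart), Plcd3/Acbd4 (24 bp), Best1/Rab3il1 (36 bp), Tradd/Fbxl8 (39 bp) and Dusp3/Cfap97d1 (43 bp). Others, picked after their values were seen, were Abcg5/Abcg8, the sterol transporter of liver and gut, Duox2/Duoxa2, an oxidase of the thyroid and its maturation factor, and Hspb2/Cryab, a pair of small heat shock proteins abundant in muscle.

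Urod/Hectd3, of which Urod is an enzyme of haem synthesis, was the only pair with a separate peak at each TSS in at least 2 lists. Its TSSs are 904 bp apart, and Ctrl replicate 1 and cKO replicate 2 each held 2 peaks there, with scaled summit depths of 30.2 and 32.1 for the stronger one and no peak in the other lists. In at least 1 list, 6 pairs had such separate peaks.

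Pairs with a CCAAT box in either promoter window (484 pairs) held a peak in 93.2%, 36.8%, 84.1% and 93.0% of cases in Ctrl replicates 1 and 2 and cKO replicates 1 and 2, and pairs without one in 91.7%, 19.0%, 73.4% and 91.1%. Their median scaled summit depths were 49.3, 6.35, 17.8 and 41.0, against 30.8, 6.06, 12.5 and 27.1. This was 1 of 8 motifs, picked after the values were seen. Pairs with the ETS letters held a peak in 97.8%, 26.5%, 82.8% and 97.2% of cases, against 89.8%, 28.4%, 76.6% and 89.5% without them, and had median scaled summit depths of 38.2, 6.50, 15.9 and 32.9, against 40.7, 6.06, 15.9 and 34.3. Windows of widely spaced pairs cover more sequence, and the part of TSS distance in these values was not tested.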
